A study of Mus musculus with 16 samples.

Results

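CD4+ T cells taken from mice without any stimulation were compared here for what lies on their polysomes against what lies in their cytosol. The members are all 8 arrays of ex vivo cells, of 16 arrays in the whole series, and all 16475 genes on them. The other 8 arrays are of activated cells. Lymph nodes and spleens were taken from C57BL/6 mice (female, 6 to 12 weeks old) that carry a GFP reporter knocked into the Foxp3 gene, so every group, on both sides of each comparison, carried that reporter. CD4+ cells were enriched on magnetic beads and sorted on CD4 and GFP, by the authors' statement to a purity above 97%. GFP+ cells, TFoxp3+, are regulatory T cells, which restrain immune responses, and GFP- cells, TFoxp3-, are the remaining CD4+ cells, naive and memory together. Cycloheximide (100 µg/ml), which stops ribosomes on the mRNA, was in all buffers. Of each subset, 2 arrays hold cytosolic RNA (arrays 1 and 5 for TFoxp3+, 3 and 7 for TFoxp3-) and 2 hold polysome-associated RNA (arrays 2 and 6 for TFoxp3+, 4 and 8 for TFoxp3-). The polysome-associated sample is the part of a sucrose gradient in which mRNAs carry at least 3 ribosomes, and each sample pooled RNA from 2 experiments.

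An mRNA in translation is read by several ribosomes at once, which makes it sediment faster in sucrose. How many ribosomes it carries depends on how often translation is initiated, on how fast ribosomes travel and on how long the coding sequence is, so a short coding sequence has room for few. Resting T cells are known for a low rate of protein synthesis and for holding translation machinery back until they are activated, and mRNAs of that machinery are a classic group under such control. The length of coding sequences was not analysed here. Levels below are log2 intensities, and a difference is the polysome-associated minus the cytosolic level on that log2 scale, so 1 is a 2-fold difference. The authors scaled the arrays to each other (array medians were 4.84 to 4.98, and interquartile ranges 3.03 to 3.13 in TFoxp3+ and 3.34 to 3.54 in TFoxp3- cells), so a difference is relative to the other genes, and fewer polysomes in all would not show.

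The arrays held T cells by their markers. All 12 markers of T cell identity lay above the level of unexpressed genes in each of the 8 arrays (3 were called lower in polysomes, 0 higher), that level being 4.99, the 95th percentile of 72 odorant, vomeronasal and taste receptor genes. Foxp3 was at 10.29 and 10.65 in the cytosol and 10.46 and 10.59 in polysomes of TFoxp3+ cells, against 3.74 and 3.75 in the cytosol and 4.57 and 4.74 in polysomes of TFoxp3- cells. Il2ra, which encodes CD25 for the receptor of IL-2, was at 6.94 to 7.54 in the 4 TFoxp3+ arrays and at 3.55 to 4.28 in the 4 TFoxp3- arrays. Of markers of other cells that lymph nodes and spleens hold, few passed the test. The fit called 0 of 11 B cell, 0 of 15 myeloid, 0 of 11 erythroid and 0 of 12 stromal markers, and 1 of 10 markers of NK and CD8 T cells, the perforin gene Prf1, which was 0.68 higher in polysomes and is named because it is the single one. The summed linear intensity of the NK and CD8 list was 761 and 758 in cytosol and 1110 and 1234 in polysomes of TFoxp3- cells, and 300.5 and 342 in cytosol and 396.2 and 391.7 in polysomes of TFoxp3+ cells, so it was higher in polysomes without overlap. That of the B cell list was 551 and 586 in cytosol and 650 and 823 in polysomes of TFoxp3- cells, and it overlapped between fractions in TFoxp3+ cells (609 to 783). Their part in the differences of other genes was not tested. Replicates of a group correlated across genes with r from 0.980 in TFoxp3+ polysomes to 0.992 in TFoxp3- cytosol. The 3′ control probes of actin exceeded the 5′ probes by 4.16 to 4.64 on TFoxp3+ arrays of both fractions and by 0.82 to 1.38 on TFoxp3- arrays, so this sign of RNA quality moved with the subset. The same gap for Gapdh moved with the fraction too, from 4.12 and 3.96 in cytosol to 3.71 and 3.51 in polysomes of TFoxp3+ cells, and in the opposite direction, from 2.26 and 2.71 to 2.91 and 3.37, in TFoxp3- cells. The part of both in the differences was not tested.

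One set of mRNAs set the 4 polysome arrays apart from the cytosolic arrays in both subsets. The genes with the largest fitted excess in polysomes were Serpina1c and Serpina3k, protease inhibitors that the liver secretes into plasma, with Hpx (hemopexin, which binds heme), Ttr (transthyretin, a thyroid hormone carrier), Serpina1b and the lipoprotein Apoc3. Serpina3k was at 2.56, 2.63, 2.80 and 2.59 in the cytosolic arrays 1, 3, 5 and 7, all below the level of unexpressed genes. In the polysome arrays 2, 4, 6 and 8 it was at 9.05, 9.24, 8.61 and 6.37. All 4 polysome arrays thus lay above all cytosolic arrays, and array 8 was the lowest of them. The difference was 5.67 (SE 0.52, adjusted p = 0.00222 from limma), and that of Serpina1c was 5.82 (SE 0.55, adjusted p = 0.00222). With cytosolic levels not above unexpressed genes these sizes are not exact: measured from 4.99, the mean of the polysome arrays was higher by at least 3.32 for Serpina3k and 4.41 for Serpina1c. Alb, the plasma albumin of the liver, was at 4.70, 3.71, 4.05 and 3.95 in the cytosolic arrays 1, 3, 5 and 7 and at 6.68, 7.32, 6.43 and 5.35 in the polysome arrays 2, 4, 6 and 8, a difference of 2.34 (SE 0.37, adjusted p = 0.0106) and of at least 1.45 measured from 4.99.

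A list of 63 genes typical of hepatocytes was then drawn up, after these values were seen, and 57 of them were measured. The fit called 25 higher and 0 lower in polysomes, and the median difference was 1.05, against 0.01 over all genes. Of the 57, 12 lay above the level of unexpressed genes in all 4 polysome arrays and in none of the cytosolic arrays, and 17 lay below it in all 8, among them Hnf4a, a transcription factor that defines hepatocytes (4.30 to 4.77). The summed linear intensity of the list was 883 and 928 in TFoxp3- cytosol, 1300 and 1270 in TFoxp3+ cytosol, 6741 and 5276 in TFoxp3+ polysomes, and 5886 and 1928 in TFoxp3- polysomes, where array 8 gave the lower value. Of the members 4 to 9 lay above the level of unexpressed genes in cytosolic arrays and 19 to 36 in polysome arrays. Array 8 was the lowest of the 4 polysome arrays for 44 of the 57 genes. Lists for other organs, also drawn up after the fact, gave 0 calls for muscle (22 genes), pancreas (16), kidney (14) and brain (14). The labels give no source of these mRNAs, and the part of the list in the differences of other genes was not tested.

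**Figure D1:**
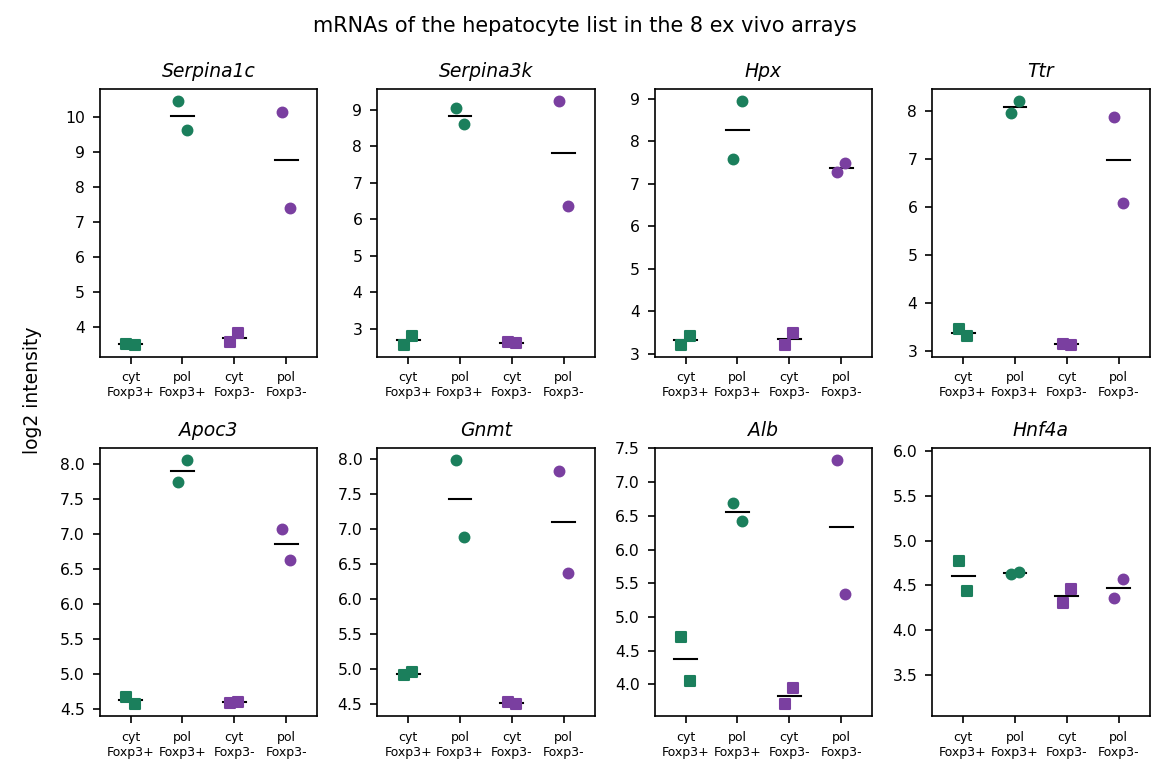
Levels (log2 intensity, vertical axes) of 8 genes of the hepatocyte list in the 8 ex vivo arrays, by fraction (cyt, cytosolic, squares; pol, polysome-associated, circles) and subset (green TFoxp3+, purple TFoxp3-), with a bar at the mean of each pair of arrays. The first 7 genes lie near the level of unexpressed genes in cytosol and higher in polysomes, while Hnf4a lies between 4.30 and 4.77 in all arrays.

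Over both subsets, cytosolic and mitochondrial ribosomal proteins and subunits of oxidative phosphorylation had 48 of 158 members called lower in polysomes and 3 called higher. Chromatin modifiers, zinc finger proteins and ubiquitin ligases had 24 of 460 called higher (5.22%) and 3 called lower. The share called higher was 2.31% of all genes and 4.13% of expressed genes, and the 460 hold members of both kinds, expressed and not. In the fit of 4 polysome against 4 cytosolic arrays with the subset as a block, limma called 380 genes higher (2.31% of 16475) and 575 lower (3.49%) in polysomes at a Benjamini-Hochberg adjusted p under 0.05. In 377 and 572 of them (2.29% and 3.47% of all 16475 genes) the arrays of the fractions did not overlap in either subset. The call itself favours such genes, so this is no separate support. Calls lay mostly among expressed genes. Of 8056 genes above the level of unexpressed genes, 4.13% were called higher and 6.58% lower, and these are the shares to read expressed gene lists against. Without the hepatocyte list, 355 genes were higher and 575 lower, and 352 and 572 of them did not overlap. Genes of the same pattern can remain among the 355, as Wfdc21, which is not on the list, shared it (values below). In 149 of the 955 the fraction with less had a mean below the level of unexpressed genes, so that the size of their difference is not exact. The differences were mostly moderate, with 91 higher and 206 lower genes beyond 2-fold, and 29 and 33 beyond 3-fold, of which 15 of the 29 were hepatocyte genes. The count of 955 rests on few arrays: it was 511 without array 1, 405 without array 3, 617 without array 5, 472 without array 7 and 491 without array 8, and 700 to 968 without any other array. A fit over all 16 arrays called 62 genes, all of them among the 955.

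**Figure D2:**
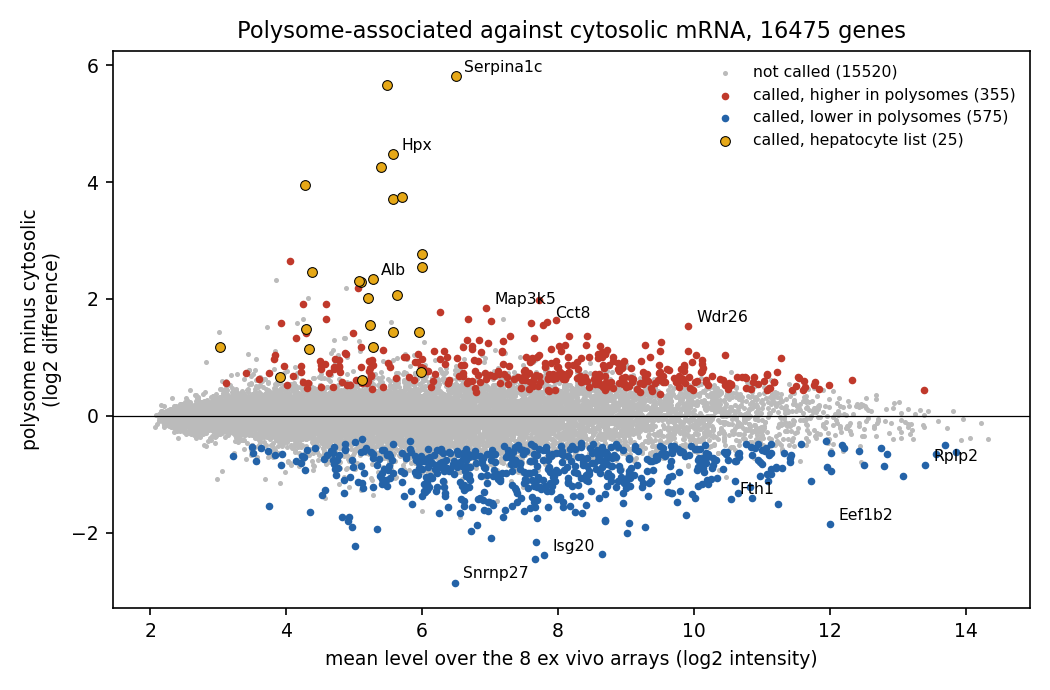
Polysome-associated minus cytosolic level (log2 difference, vertical axis) against the mean level over the 8 ex vivo arrays (log2 intensity, horizontal axis), 1 point per gene. Called genes higher in polysomes (red) and lower (blue) lie mostly at higher levels, and the called hepatocyte genes (yellow, 25) hold the largest differences, at mean levels of 3.03 to 6.50.

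Next to the hepatocyte genes, the largest differences toward polysomes were those of Wfdc21, the kinase Map3k5, the deadenylase Cnot6 and the reductase Txnrd1. They were picked after the list was seen, as the 12 highest genes outside it. Map3k5, the stress kinase ASK1, was at 6.03, 5.88, 6.38 and 5.79 in the cytosolic arrays 1, 3, 5 and 7 and at 7.64, 7.94, 7.54 and 8.35 in the polysome arrays 2, 4, 6 and 8. The fractions did not overlap, and array 8, the lowest for hepatocyte genes, was here the highest. Its difference was 1.85 (SE 0.20, adjusted p = 0.00389). Txnrd1, the cytosolic thioredoxin reductase, a selenoprotein, went from 5.51 to 6.08 in cytosol to 7.31 to 7.73 in polysomes, a difference of 1.66 (SE 0.14, adjusted p = 0.00222). Cct8, a subunit of the CCT chaperonin that folds actin and tubulin, was at 6.47, 7.36, 7.06 and 7.26 in cytosol and 8.24, 9.04, 8.34 and 8.94 in polysomes (difference 1.60, SE 0.14, adjusted p = 0.00222).

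Cd28, the costimulatory receptor of T cells, was at 7.0 and 7.67 in cytosol and 8.65 and 8.76 in polysomes of TFoxp3+ cells. In TFoxp3- cells it was at 8.36 and 7.96 in cytosol and 9.68 and 9.36 in polysomes. The level was higher in TFoxp3- cells, but the excess in polysomes was 1.37 in TFoxp3+ and 1.36 in TFoxp3- cells, and over both it passed the test (1.36, SE 0.17, adjusted p = 0.00493). Cnot6, a deadenylase of the CCR4-NOT complex that shortens poly(A) tails, was 1.78 higher (adjusted p = 0.0112), and Wdr26, a subunit of a ubiquitin ligase, 1.54 higher (adjusted p = 0.00877). Other genes of this set were the ubiquitin ligase Marchf7 (1.64), the zinc finger protein Zfp445 (1.63), Oxct1 of ketone body use (1.59), Atp10d (1.56) and Wfdc21 (2.19). RefSeq lists Atp10d as a transcribed pseudogene, and its call (adjusted p = 0.044) was lost without any 1 of arrays 1, 2, 3, 4, 6, 7 and 8. Wfdc21 shared the pattern of the hepatocyte genes, with 3.62 to 4.46 in cytosol, 6.28 to 6.71 in arrays 2, 4 and 6, and 5.22 in array 8, a difference of at least 1.17 measured from 4.99.

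The gene with the least mRNA in polysomes relative to cytosol was Snrnp27, a small protein of the spliceosome. It was at 7.74, 8.21, 7.43 and 8.27 in the cytosolic arrays 1, 3, 5 and 7 and at 4.82, 6.17, 4.07 and 5.17 in the polysome arrays 2, 4, 6 and 8, without overlap. Its difference was -2.85 (SE 0.25, adjusted p = 0.00222). Isg20, an interferon-induced RNA exonuclease, followed with 9.22, 8.77, 9.0 and 8.97 in cytosol and 7.11, 5.91, 7.58 and 5.80 in polysomes (difference -2.39, SE 0.25, adjusted p = 0.0031). It was lowest in polysomes of TFoxp3- cells, with a difference of -3.01 there and -1.77 in TFoxp3+ cells. The gap between subsets did not pass the test (1.25, adjusted p = 0.53 from limma).

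The rest of the 12 lowest were Rps6 (-2.37), Ccdc115 (-2.22), the G protein subunit Gng10 (-2.17), Coa6, an assembly factor of cytochrome c oxidase (-2.10), Rnf7, the RING subunit of cullin ubiquitin ligases (-2.01), Mrpl32 of the mitochondrial ribosome (-1.93), Bola3, a mitochondrial iron-sulfur factor (-1.91), Eef1b2 (-1.85), the splicing factor Syf2 (-1.83) and Arpc1b of the Arp2/3 complex (-1.80). The polysome means of Ccdc115 and Mrpl32 lay below the level of unexpressed genes, and measured from it they were lower by at least 1.14 and 1.31. Bola3 had 9.84 to 10.72 in cytosol and 7.69 to 9.0 in polysomes. Adjusted p was 0.00281 for Syf2 to 0.0203 for Rnf7 in these 10 genes. Only the call of Rnf7 among the 12 was lost when single arrays were left out, which happened without array 1, 3, 6 or 7.

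**Figure D3:**
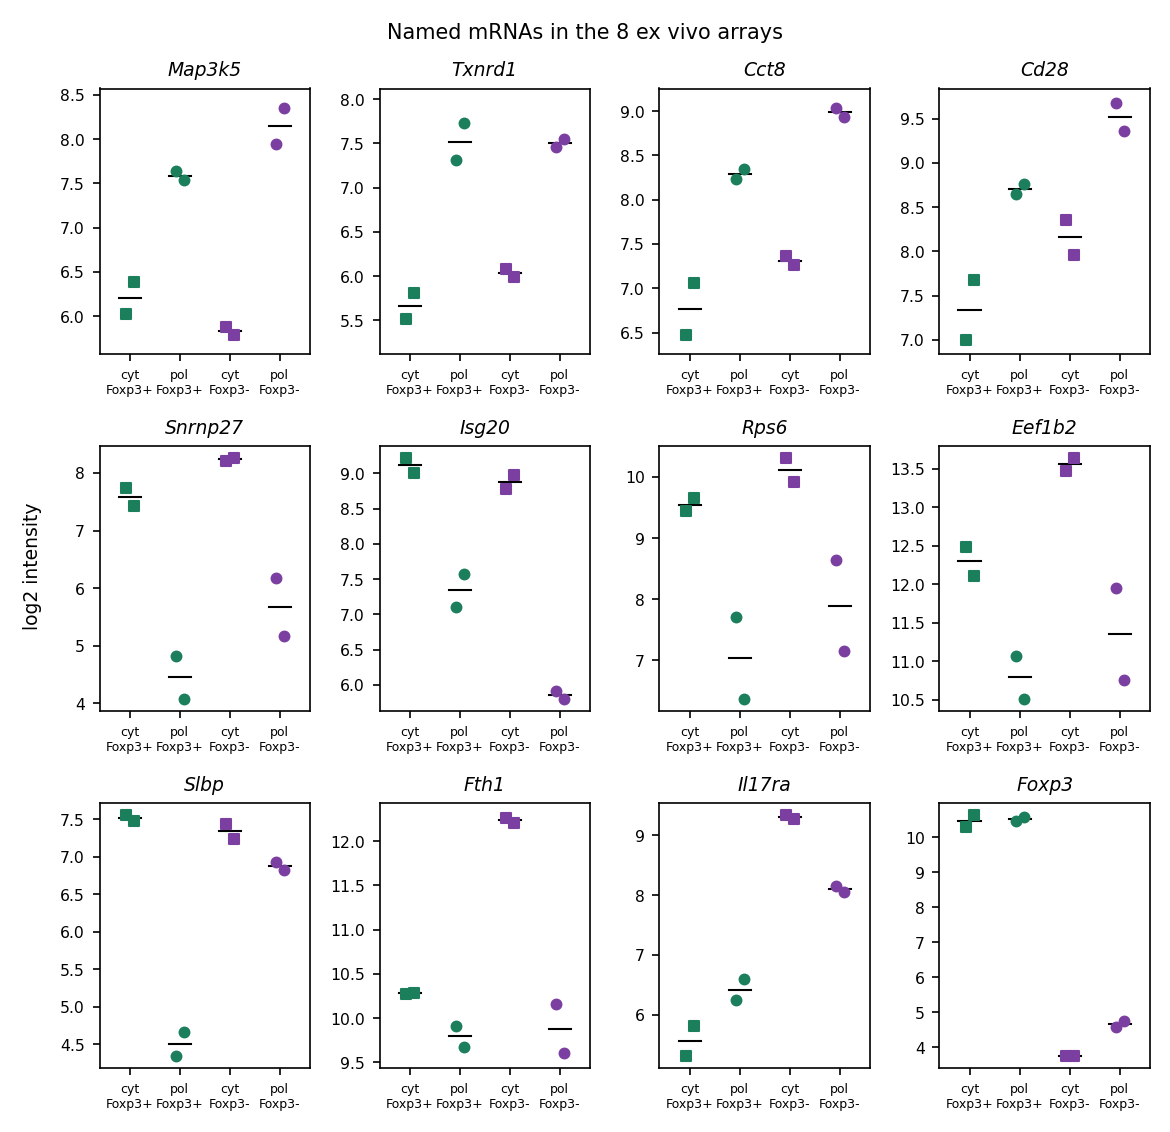
Levels (log2 intensity, vertical axes) of 12 named genes in the 8 ex vivo arrays, by fraction (cyt, cytosolic, squares; pol, polysome-associated, circles) and subset (green TFoxp3+, purple TFoxp3-), with a bar at the mean of each pair. In the top row polysome arrays lie above cytosolic arrays of the same subset, and in the middle row below them. The bottom row shows Slbp and Fth1, with a larger difference in 1 subset, Il17ra, with differences of opposite sign, and Foxp3. The test between subsets called 0 genes.

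Of all lists, cytosolic ribosomal proteins had the largest share of members called lower. These proteins, whose mRNAs are classic targets of mTOR through a run of pyrimidines at their 5′ end (a TOP), had 9 of 20 measured members lower (45%) and 0 higher. Their median difference was -0.49, between -0.66 and -0.39 under the alternatives tried, and 17 of the 20 were below 0. Rps6, a protein of the small ribosomal subunit that is phosphorylated when cells grow, was at 9.44, 10.32, 9.65 and 9.91 in the cytosolic arrays 1, 3, 5 and 7. In the polysome arrays 2, 4, 6 and 8 it was at 7.70, 8.64, 6.37 and 7.15 (difference -2.37, SE 0.36, adjusted p = 0.00904). Rpl14 of the large subunit had 9.55 to 10.05 in cytosol and 8.32 to 8.95 in polysomes (-1.21, adjusted p = 0.00695), and Rplp2 of the ribosomal stalk 13.48 to 14.20 and 12.44 to 13.60 (-0.84, adjusted p = 0.0103). The list holds the 20 cytosolic ribosomal proteins found in the table by symbol, and closely related pseudogenes can share their probes.

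Of 8 measured elongation factor and other TOP mRNAs, all had a difference below 0, but only Eef1b2 passed the test. Eef1b2, which reloads elongation factor 1A with GTP, was among the most abundant mRNAs, with 12.48, 13.47, 12.11 and 13.64 in cytosol and 11.07, 11.95, 10.51 and 10.75 in polysomes (-1.85, SE 0.28, adjusted p = 0.00877). Translation initiation factors had 5 of 37 lower and 0 higher, with Eif3h (-1.50) and Eif3d (-1.17), both of the eIF3 complex, and the cap-binding protein Eif4e3 (-0.66, lost without array 3). Eif4e, the main cap-binding protein, was at 5.21 to 5.73 in cytosol and 5.14 to 5.47 in polysomes (-0.06, adjusted p = 0.868). These levels lay below 5.95, the highest mean among the unexpressed receptor genes, so the size of this difference is not exact.

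To show what the starts of these mRNAs look like, the first 20 bases from the annotated start are given for some called ribosomal proteins and Eef1b2, from the RefSeq promoter table (GRCm38.p6). Capitals mark a run of C followed by at least 4 C or T at the very start. The first line lies at chr4:86857348-86857367 (minus strand), and the others at chr9:120571517-120571536 (plus), chr7:141447651-141447670 (plus), chr7:45128726-45128745 (minus) and chr1:63176831-63176850 (plus).
Rps6: CTCTTTTTCgtgacgcctcc
Rpl14: CTTCTCgctgagcgccgcca
Rplp2: CTTTCgccgccggacgccgc
Rpl13a: gacctcctcctttcccaggc
Eef1b2: gccggaagtagccgaggcct
Of the 10 called members of both lists, 8 had an entry, and 3 of these had such a run. Rpl26, Rps9 and Rps15 also had an entry, without a run, and are not printed. The 3 with a run had the smallest adjusted p from limma among ribosomal proteins. Eef1b2, without a run, had a smaller one (0.00877) than Rps6 (0.00904) and Rplp2 (0.0103), and a link was not tested. Annotated starts can miss the true start by some bases, and a missing run says only that these letters are not in this window. Over all genes called lower the run was about as frequent as over those called higher: it stood at the start of 3.33% of 450 genes with an entry, of 3.53% of 312 genes called higher and of 2.87% of all 12800 genes with an entry.

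Mitochondrial gene products of nuclear origin formed the second low group. Of 71 mitochondrial ribosomal proteins 19 were called lower (26.8%) and 1 higher, with a median of -0.29 and 56 below 0. Mrps24 had 10.47 to 11.01 in cytosol and 9.14 to 10.14 in polysomes (-1.10, SE 0.12, adjusted p = 0.00389), and Mrps21 and Mrpl32 were lower by -1.15 and -1.93. Of 67 subunits of oxidative phosphorylation 20 were lower (29.9%) and 2 higher, with a median of -0.22 and 50 below 0. Atp5e, the epsilon subunit of ATP synthase, was at 11.60, 11.32, 11.82 and 11.49 in the cytosolic arrays 1, 3, 5 and 7 and at 10.35, 10.14, 10.30 and 9.78 in the polysome arrays 2, 4, 6 and 8. Its difference was -1.41 (SE 0.12, adjusted p = 0.00222). Cox6c of cytochrome c oxidase (-1.12) and Ndufv2 of complex I (-1.04) were lower too, and the 3 did not overlap between fractions. Sdha, the catalytic flavoprotein of succinate dehydrogenase, named after its value was seen, was 0.81 higher. Medians of both lists stayed below 0 under all alternatives tried, at -0.39 to -0.23 and -0.30 to -0.18.

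Protein folding and degradation held members in both directions. Molecular chaperones had 6 of 42 lower and 1 higher. The 1 higher was Cct8, and among the lower were Bag1, a cofactor of Hsp70 (-1.59, SE 0.17, adjusted p = 0.0031), and Pfdn4 of prefoldin, which hands actin to CCT (-1.36, SE 0.14, adjusted p = 0.0031). Pfdn4 lay at 3.26 to 4.33 in all polysome arrays and at 4.46 and 4.81 in TFoxp3+ cytosol, below the level of unexpressed genes, so its size is not exact. Proteasome genes had 5 of 40 lower, such as Psma7 of the 20S core (-1.33), and 1 higher, Psme4, the large activator PA200, which was at 4.95 to 5.69 in cytosol and 6.19 to 6.30 in polysomes (1.0, SE 0.16, adjusted p = 0.00992). Ubiquitin ligases had 5 of 70 higher (7.14%), led by Marchf7 and Ube3b (0.77), and Rnf7 as the 1 lower member.

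Chromatin modifiers had more higher than lower calls, and mRNA decay factors too. Of 88 chromatin modifiers 8 were higher (9.09%) and 1, the remodelling subunit Arid1a (-0.77), was lower, with a median of 0.11 that stayed above 0 under all alternatives tried. Kat2a, a histone acetyltransferase (0.66, adjusted p = 0.012), and Kdm6b, a demethylase of H3K27 (0.74, adjusted p = 0.0158), were among the 8. Of 302 numbered zinc finger proteins 11 were higher (3.64%) and 1 lower, against 2.31% higher of all genes and 4.13% of expressed genes. Only 113 of the 302 lay above the level of unexpressed genes. Zfp954 was at 6.85 to 7.05 in the 4 cytosolic arrays and at 8.20 to 8.42 in the 4 polysome arrays (1.34, SE 0.10, adjusted p = 0.00222), which made it one of the tightest differences. Factors of mRNA decay had 5 of 42 higher and 2 lower, with Cnot6 and Edc3 (0.72), a decapping enhancer, up and Khsrp, an AU-rich element binding protein, down (-0.94). As a whole this list did not lean to polysomes. Its median was -0.04, with 22 of 42 below 0, and lay between -0.07 and 0.09 under the alternatives tried.

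**Figure D4:**
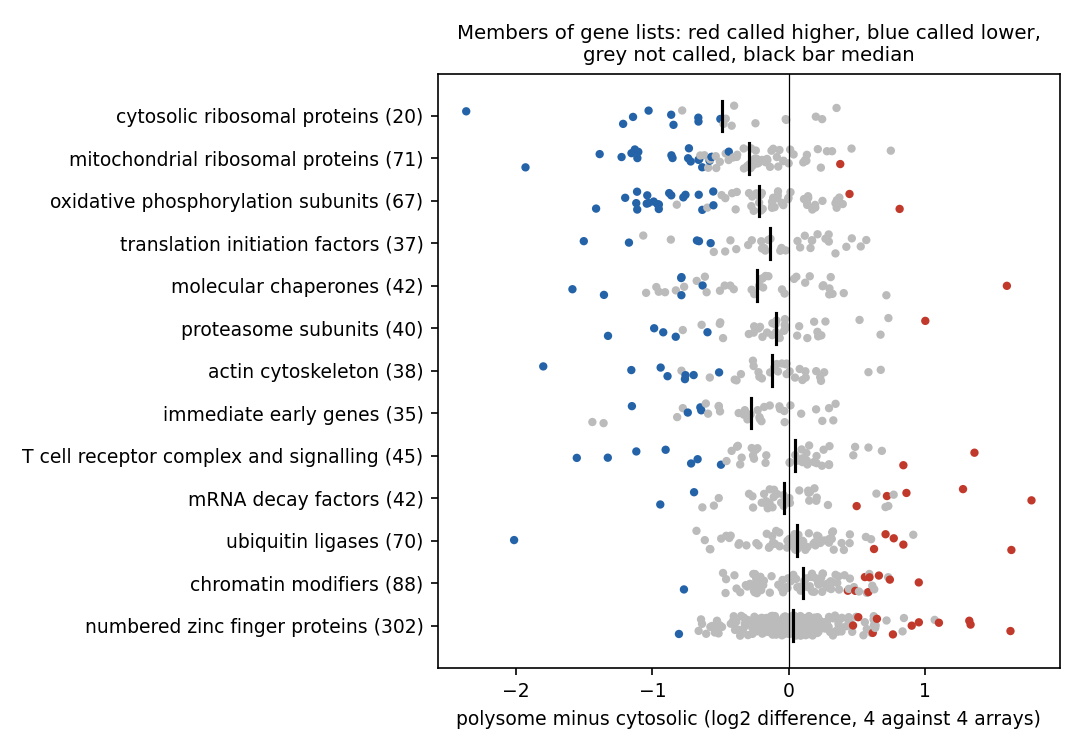
Differences (log2, polysome-associated minus cytosolic, 4 against 4 arrays, horizontal axis) of the measured members of 13 gene lists (number in brackets), 1 point per gene, red for called higher, blue for called lower and grey for not called, with a black bar at the median. Blue points make up 45% of cytosolic ribosomal proteins, 26.8% of mitochondrial ones and 29.9% of oxidative phosphorylation subunits, and red points 11.9% of mRNA decay factors, 9.09% of chromatin modifiers and 3.64% of zinc finger proteins.

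Genes of T cell function went in both directions. Of 45 genes of the T cell receptor complex and its signalling 7 were lower and 2 higher, with a median of 0.05. Cd2, an adhesion receptor, was at 11.55, 11.72, 11.45 and 11.58 in the cytosolic arrays 1, 3, 5 and 7 and at 10.79, 10.52, 10.84 and 10.55 in the polysome arrays 2, 4, 6 and 8 (-0.90, SE 0.12, adjusted p = 0.006). Bcl10, an adaptor of NF-κB signalling, was lower by -1.12 (adjusted p = 0.00691). Cd3e (0.13, adjusted p = 0.674) and Cd4 (-0.38, adjusted p = 0.39) did not pass the test. Cytokine receptors and STATs had 2 of 31 lower and 0 higher, Socs3, an inhibitor of cytokine signalling (-1.07, SE 0.12, adjusted p = 0.00389), and Il10rb (-1.24, adjusted p = 0.011). The actin cytoskeleton, which shapes the contact with antigen-presenting cells, had 8 of 38 lower (21.1%) and 0 higher, such as Arpc1b, Capzb, which caps filaments (-0.94), and Arhgdib (-0.89).

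Immediate early genes, which are induced within minutes of a stimulus, had 4 of 35 lower and 0 higher, with 28 of 35 below 0 and a median of -0.28. Ier5 was the member with the smallest adjusted p (-0.74, SE 0.11, adjusted p = 0.00877). Dusp6, a phosphatase of ERK, was lower by -1.15 and Junb by -0.64, calls that were lost without any 1 of arrays 1, 3, 5 and 8 and, for Junb, without array 6 or 7. Of 25 genes of regulatory T cells 1 was higher and 1 lower. Tnfrsf4, the receptor OX40, was 0.67 higher (adjusted p = 0.0267) and Klrg1 lower by -1.10 (adjusted p = 0.043), and leaving out 1 array ended the first call for arrays 1, 3, 4, 6, 7 and 8 and the second for every array but array 4. Foxp3 (0.48, adjusted p = 0.184), Il2ra (-0.38, adjusted p = 0.181) and Ctla4, an inhibitory receptor (-0.14, adjusted p = 0.8), did not pass the test. Foxp3 and Il2ra lay below the level of unexpressed genes in all TFoxp3- arrays, so the size of their differences over both subsets is not exact. Of 29 genes of naive T cells and quiescence 1 was higher, the transcription factor Lef1 (1.06, adjusted p = 0.0175, lost without array 3), and 1 lower.

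The remaining lists had at most 4 calls in either direction. Some of them are small, so counts are to be read against the shares of all genes. Those were 2.31% higher and 3.49% lower, and 4.13% and 6.58% of expressed genes. The largest shares were 18.75% lower of MHC class I presentation, 13.3% lower of the ER translocon, and 12.5% each way of selenoproteins. The higher and lower counts were 0 and 1 of 12 replication-dependent histones, 0 and 1 of 15 long noncoding and snoRNA host RNAs, 1 and 1 of 21 mRNAs of the integrated stress response, 2 and 2 of 16 selenoproteins, 3 and 3 of 49 ribosome biogenesis factors, and 0 and 0 of 9 genes of polyamine synthesis. They were 0 and 1 of 29 cytokines and chemokines, 1 and 0 of 16 glycolytic genes, 2 and 0 of 23 genes of cholesterol synthesis, 0 and 2 of 23 aminoacyl-tRNA synthetase genes, 1 and 3 of 54 splicing factors, and 0 and 0 of 14 Sm and LSm proteins. They were 1 and 1 of 57 genes of mitosis, 2 and 4 of 30 of the ER translocon, 0 and 3 of 16 of MHC class I presentation, 2 and 3 of 43 interferon response genes, 0 and 3 of 38 of PI3K and mTOR signalling, 1 and 1 of 27 trafficking receptors, and 2 and 2 of 34 lysosomal genes. H2bc4, a histone H2B, was lower by -1.90 (adjusted p = 0.00389), but all its polysome values (3.38 to 4.69) lay below the level of unexpressed genes, from which it was lower by at least 0.92. Further called members were Aimp1 of the tRNA synthetase complex (-1.57, adjusted p = 0.0107), Gar1 of the box H/ACA particle (-1.32, adjusted p = 0.00691), and Tsr1, a factor of the small ribosomal subunit (1.05, adjusted p = 0.00389).

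RNAs without a protein product are known to carry few ribosomes. Of 57 long noncoding RNAs above the level of unexpressed genes 13 were called lower (22.8%) and 1 higher, against 6.35% lower and 4.19% higher of 7885 protein-coding genes above it. Of 28 pseudogenes above it 8 were lower and 1 higher. Xist, the RNA that coats the inactive X chromosome in the nucleus, was at 6.69, 5.79, 7.63 and 6.51 in the cytosolic arrays 1, 3, 5 and 7 and at 5.76, 5.34, 5.57 and 5.14 in the polysome arrays 2, 4, 6 and 8 (-1.20, SE 0.25, adjusted p = 0.025), a call that was lost without array 6, 7 or 8. Snora65, a nucleolar guide RNA named after its value was seen, was lower by -1.56 (SE 0.36, adjusted p = 0.0405). The median of the lncRNAs above that level was -0.15.

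Fth1, the heavy chain of ferritin, is the model of an mRNA held back from ribosomes by iron regulatory proteins bound to its 5′ end when iron is scarce. It was the 1 called gene of 9 measured mRNAs with an iron-responsive element, of which 4 had a mean above the level of unexpressed genes. Fth1 was at 12.27 and 12.20 in cytosol and 10.15 and 9.61 in polysomes of TFoxp3- cells, a difference of -2.35 (SE 0.20, adjusted p = 0.00722 within the subset). In TFoxp3+ cells it was at 10.27 and 10.28 in cytosol and 9.92 and 9.67 in polysomes, a difference of -0.48 (adjusted p = 0.299). Over both subsets it was lower by -1.42 (SE 0.34, adjusted p = 0.047), a call that was lost with the arrays centred, after cyclic loess or quantile normalization, with the array run as a block, and without any 1 array other than array 2. Tfrc, the transferrin receptor, whose elements lie in its 3′ end (-0.09), Slc11a2 (-0.01), Alas2 (0.38), Epas1 (0.17), Cdc14a (-0.70), Cdc42bpa (0.02) and Slc40a1 (-0.02) did not pass the test, with adjusted p from 0.127 for Alas2 to 0.989 for Slc11a2.

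The difference was also taken within each subset, 2 against 2 arrays, in a fit of the 4 groups that share 1 estimate of the spread. In TFoxp3+ cells the polysomes had more of 54 genes and less of 97 (0.917% of all genes in either direction), and in TFoxp3- cells more of 70 and less of 189 (1.57%). The same 57 genes were called in both, all with the same sign. Without the hepatocyte list the counts were 45 and 97, 63 and 189, and 51 in both. The subsets share no array, so the sign in 1 can be read against calls in the other. Of the 151 genes called in TFoxp3+ cells 143 (94.7%) had the same sign in TFoxp3- cells, and of the 259 called in TFoxp3- cells 248 (95.8%) had it in TFoxp3+ cells, (94.4% and 95.6% without the hepatocyte list), against 61.1% of all genes and 68.0% of genes above the level of unexpressed genes. Across all genes the differences of the subsets had r = 0.53, and 0.49 without the hepatocyte list, given as a description, since genes are not independent and all arrays were normalized together. The counts within a subset fell to 2 in TFoxp3+ cells without array 1 and 3 without array 5, and 4 without array 3 or 7. They fell to 0 in TFoxp3- cells without array 3 or array 7, to 79 without array 1 or array 5, to 97 without array 4 and to 36 without array 8.

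The test of a different polysome-to-cytosol difference in the subsets called 0 genes with limma at an adjusted p under 0.05 (0% of 16475), 1 at an adjusted p under 0.3, and 1152 at an unadjusted p under 0.05. The 1 gene was Slbp, which binds the stem-loop at the end of histone mRNAs and is needed for their processing and translation. Slbp was at 7.56 and 7.48 in cytosol and 4.35 and 4.67 in polysomes of TFoxp3+ cells, and at 7.44 and 7.24 in cytosol and 6.93 and 6.82 in polysomes of TFoxp3- cells. Its cytosolic levels were thus alike within 0.32, while the polysome levels of the subsets stood more than 2 apart. The differences were -3.01 and -0.46, and their gap of -2.55 (SE 0.24) had an adjusted p of 0.092. The polysome values of TFoxp3+ cells lay below the level of unexpressed genes, so the size of the gap is not exact. The next genes by p were Zcchc2 (gap -1.99), Il17ra (2.06), Fth1 (1.87), Pds5b (1.68), Hadha (1.65), Fam53a (-1.58), Zfp617 (-2.80), St6galnac6 (-1.53) and Pbxip1 (1.26), all with an adjusted p of 0.494. Il17ra, the receptor chain for IL-17A, was at 5.31 and 5.82 in cytosol and 6.24 and 6.59 in polysomes of TFoxp3+ cells, and at 9.35 and 9.27 in cytosol and 8.15 and 8.05 in polysomes of TFoxp3- cells, so its differences were 0.85 (adjusted p = 0.103 within the subset) and -1.21 (adjusted p = 0.0403).

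**Figure D5:**
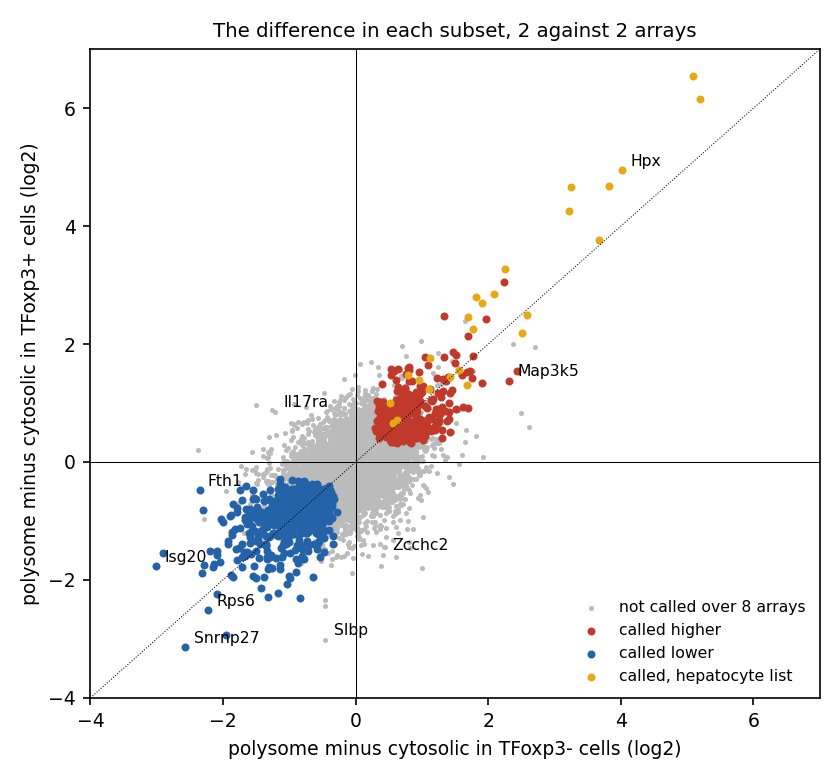
Polysome-associated minus cytosolic difference (log2) in TFoxp3- cells (horizontal axis) against that in TFoxp3+ cells (vertical axis), 2 against 2 arrays each, 1 point per gene, with the line of equality dotted. Most genes called over both subsets lie along the line, while Slbp, Zcchc2, Il17ra and the called gene Fth1 lie off it. A gap between subsets adds to the spread in the fit that made the calls, which favours genes near the line.

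The 8 arrays of activated cells, which share no array with the ex vivo ones, give the same contrast in another state. Of the 355 genes called higher ex vivo outside the hepatocyte list 218 (61.4%) had the same sign after activation, and of the 575 called lower 347 (60.3%), against 54.4% of all genes above the level of unexpressed genes. Their median differences were 0.71 and -0.86 ex vivo and 0.23 and -0.17 after activation. Cytosolic ribosomal proteins kept a median below 0 (-0.49 ex vivo and -0.38 after activation), with 18 of 20 members of the same sign, and oxidative phosphorylation had -0.22 and -0.32. Mitochondrial ribosomal proteins had -0.29 and -0.13, and zinc finger proteins 0.03 and -0.03. Of the 12 lowest genes ex vivo, 6 had a difference above 0 after activation, such as Isg20 (1.08), Coa6 (0.89), Mrpl32 (0.78) and Snrnp27 (0.71). The same fit of the activated arrays called 0 genes with limma, and 1813 had an unadjusted p under 0.05. The hepatocyte list had a median of 1.05 ex vivo and -0.06 after activation. Prkacb, a subunit of protein kinase A, differed by 0.58 ex vivo (adjusted p = 0.0933), Hdac6, a deacetylase of tubulin, by 0.63 (adjusted p = 0.0804), Lss of cholesterol synthesis by -0.53 (adjusted p = 0.354), Mis12 of the kinetochore by 0.35 (adjusted p = 0.375), Foxo3, a transcription factor, by -0.21 (adjusted p = 0.426), Skp2, a ubiquitin ligase subunit, by -0.07 (adjusted p = 0.852) and Actb, cytoplasmic actin, by 0.12 (adjusted p = 0.727), and none of these 7 passed the test.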

How the data were processed

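RNA of sorted CD4+ T cells was amplified by a kit for whole transcriptomes before hybridization to Affymetrix arrays. The deposited values are log2 intensities, made by the authors with RMA (named in the submitters' processing notes) after probes were regrouped by Entrez gene. The table holds no counts or detection values, so the number of arrays limits precision. The table has 16539 features, less 64 control probe sets that were not fitted. Symbols came from the RefSeq table (16229 of 16475 genes matched) or the platform annotation, and 218 genes had none.

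Groups were taken from the labels. Each of 16 value columns has its sample. The 8 ex vivo arrays were fitted in R 4.3.3 with limma 3.58.1, with terms for subset and fraction, moderated variances and Benjamini-Hochberg adjustment over all genes. Fits with 1 mean per group gave the differences within subsets and between them. P-values are two-sided and measure the spread between 2 arrays of a group, biological duplicates by the authors' statement. In the fit over both subsets they also measure how far the fraction difference varies between subsets. That fit has 5 residual degrees of freedom, against 4 with 1 mean per group. The fits were tested on simulated data.

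The genes and lists were chosen with earlier results of these data known. Named genes are the 12 largest differences in each direction among called genes that did not overlap in either subset and lay above the level of unexpressed genes, without unnamed, predicted or clone-named genes and receptors. Up to 3 called members per list by adjusted p, the 5 smallest p in each direction for the subset difference, a fixed set of genes and the iron-responsive list were added. The hepatocyte and organ lists, and the 12 highest genes without them, were chosen after the values were seen. Alternatives were other scalings, filters, weights, blocks and tests, and leaving out each array. Figures were drawn in Python 3.11.15 using matplotlib 3.10.9 and pandas 2.3.3. Relations to protein length were not analysed here, nor was the authors' anota analysis run. A few genes that these rules name are not reported here.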

Additional observations from a re-analysis of the deposited data

Results flagged for a closer look

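Hepatocyte genes were also looked for in the 8 activated arrays, which the comparisons above do not use. Serpina1b stood at 9.45 in array 14, a polysome array of activated TFoxp3+ cells, against 3.21 to 5.65 in the other 7 activated arrays. Fah, an enzyme of tyrosine breakdown, stood at 8.30 in array 16, also a polysome array of activated TFoxp3+ cells, against 4.24 to 5.73 in the others. Each value is of a single array. The other polysome array of these cells was at 5.65 for Serpina1b and 5.16 for Fah. Ex vivo, Fah was at 7.74 and 7.75 in cytosol of TFoxp3+ cells, above the 5.61 and 5.43 of TFoxp3- cells, and its difference between fractions did not pass the test (0.65, adjusted p = 0.0698 from limma). Other genes of the list were high in activated cytosol: Acaa1b stood at 8.84 in array 9 and 8.57 in array 15, and Apoa2 at 7.71 in array 9.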

How the results depend on the processing

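Counts of genes called over both subsets and of those that also did not overlap moved together. They were 955 and 949 here, and 405 to 968 for both when 1 array was left out. They were 62 for both with all 16 arrays, 455 and 452 with crossed arrays as a replicate block, 24 for both with only arrays 1 to 4, 0 for both with only arrays 5 to 8 (2420 genes had an unadjusted p under 0.05), 225 for both against a fold of 1.2, and 94 for both without moderated variances. The fits of 4 arrays have 1 residual degree of freedom. Within TFoxp3+ cells the count of 151 was 2 to 140 without 1 array, 6 with all 16 arrays, 54 with array weights, 252 with genes above the median mean, 249 with genes above the unexpressed receptors, 26 against a fold of 1.2 and 0 without moderation. Within TFoxp3- cells the count of 259 was 0 to 326 without 1 array, 10 with all 16 arrays, 573 with array weights, 34 against a fold of 1.2 and 2 without moderation. The count of 0 for the subset difference stayed 0 under all alternatives run. The cause of these shifts was not tested. Consecutive arrays as a replicate block gave 956 calls, 787 of them among the 955, and the labels do not say which arrays are pairs. Deviations from group means correlated with r = 0.09 between arrays 1 and 2 and 0.23 between arrays 3 and 4. Between arrays of different subsets r was -0.06 for arrays 1 and 3 and 0.16 for arrays 2 and 4. Quantile normalization moved the share of higher calls from 39.8% to 44.7%. Of 106 called named genes 71 kept the call without any 1 array and 0 kept it under all alternatives, as 1 of them calls 0 genes. Of 1795 values of these genes under alternatives 450 lost the call and 0 reversed. Lone arrays were assumed to vary like the other groups.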

Other observations

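The control probe sets, which were left out of the fits, differed between fractions. The probe set for the 3′ part of 18S rRNA was at 12.66, 12.01, 13.09 and 12.47 in the cytosolic arrays 1, 3, 5 and 7 and at 11.43, 10.72, 11.07 and 10.48 in the polysome arrays 2, 4, 6 and 8, a difference of -1.63, while that for its 5′ part was at 12.76 to 13.61 and 13.42 to 13.84. The probe set for the B1 repeat was at 8.72 to 10.64 in cytosol and 8.29 to 8.92 in polysomes, a difference of -1.40. The probe sets for Gapdh, a glycolytic enzyme often used as a reference, had a difference of -0.42 at the 3′ end and -0.67 in the middle, without overlap in either subset. Its 5′ set was at 8.85 and 8.88 in cytosol and 8.80 and 8.90 in polysomes of TFoxp3+ cells, and at 10.89 and 10.40 in cytosol and 9.85 and 9.37 in polysomes of TFoxp3- cells. These values were not tested.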
